A study of Mus musculus with 12 samples.

Results

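The genes described here are 47 genes of DNA replication and nucleotide supply, taken by symbol from the 23420 genes of a count table of mouse palatal epithelium. They cover origin licensing (5 genes), the MCM2-7 helicase (6), helicase activation (6), the polymerases (8), the sliding clamp and its loader (6), single-strand binding and joining (5), nucleotide supply (5) and G1/S regulators (6). All 47 symbols were found, and all 47 passed the filter on low counts that left 11719 genes for testing. The rule used symbols and roles, and no measured value. The list itself was chosen with earlier results of these data known, so no p is given for it.

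The study sorted basal cells from the hard palate of 6 FVB mice that were K5-tTA (+/-) and tetO-H2B-GFP (+/-), and sequenced 2 libraries from each mouse. A keratin 5 promoter drives the tTA transactivator, which turns on a histone H2B joined to GFP until doxycycline shuts it off, and every mouse had been on doxycycline for 14 days. Cells positive for CD49f, the α6 integrin of basal keratinocytes, were divided by remaining fluorescence into GFP-HI, which the submitters label infrequently dividing, and GFP-LO, which they label frequently dividing. Mice B1M, B3M, B4M, B5M and B7M were 49 days old and B7F was 71 days old. The label exists only in cells in which the K5 promoter was active, division dilutes it, and the GFP level at the start of the chase was not measured in these libraries. Each library came from a small pool of sorted cells, so the 6 animals are the replicates.

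Total counts ran from 6678444 to 10547665 per library, and from 4030757 to 6419834 without the ribosomal RNA precursor Rn45s, which took 31.5% to 59.8% of the counts. The 47 genes held 4652 to 9674 counts per library. A count of 3 was worth 0.258 to 0.433 CPM (a library's counts scaled to a common total by trimmed mean of M-values). That is a limit of counting error only, since the counts were used as deposited, without a correction here for amplified reads. The fewest genes were detected in GFP-HI of B1M (12312) and in GFP-HI of B3M (12810). The basal keratins Krt5 and Krt14 averaged 5194 and 10200 CPM in GFP-HI, against 5827 and 10980 CPM in GFP-LO, and Itga6, which encodes CD49f, averaged 562.6 against 611.4 CPM (n = 6 each), so both fractions expressed the genes that define the labelled cell type.

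To copy its genome, a cell first loads the MCM2-7 helicase onto origins through the origin recognition complex, Cdc6 and Cdt1, a step that geminin blocks once DNA synthesis has begun. Cyclin E with its kinase and the Dbf4-dependent kinase Cdc7 then start the loaded helicases, Cdc45 and the GINS complex join them, and the polymerases copy both strands behind the fork while PCNA holds them on the template. Ribonucleotide reductase and its partner enzymes supply the deoxynucleotides, and many of these genes are transcribed at the G1/S boundary by E2F factors.

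Promoters in RefSeq (GRCm38.p6, 250 bases before to 50 bases after the start) were found for 38 of the 47 genes, 45 promoters in all. They were searched on both strands for 2 E2F-like motifs, TTTCCCGC and TTTGGCGC, whose reverse complements are GCGGGAAA and GCGCCAAA. One or more stood in 12 of 45 member promoters, 26.7% (Wilson interval 16.0% to 41.0%), against 514 of all 32851 promoters of this length, 1.56%. Without the leading T, which makes each motif 7 letters long and contains the longer match, the shares were 48.9% (35.0% to 63.0%) and 6.81%. The 12 genes were Cdc6, Cdt1, E2f2, Gins3, Mcm3, Mcm5, Mcm6, Mcm7, Pola1, Pold1, Pole2 and Rfc3. A match is a string of letters and not a shown binding site. The promoter stretches below are those of members with an 8-letter match before the start site. They are read 5′ to 3′ on the gene's strand, with the motif in capitals. Mcm7, Cdc6 and Gins3 have GCGGGAAA there, Mcm5 and Pola1 GCGCCAAA, and Mcm6 TTTGGCGC, so the genes do not all share the same letters. The other 26 genes with a promoter in RefSeq, outside the 12, had no 8-letter match. Mcm6 carries the motif at 2 places. Rrm1, the member with the smallest p below, has only the 7-letter form and is shown beside them. None of these stretches overlaps an exon of its gene in the deposited table, but the stretch of Cdc6 lies within that gene's span there, which starts at base 98907889 of chromosome 11.
Mcm5 (chr8:75109340-75109387, plus strand): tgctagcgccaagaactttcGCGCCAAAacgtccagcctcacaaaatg
Mcm6 (chr1:128359725-128359835, minus strand): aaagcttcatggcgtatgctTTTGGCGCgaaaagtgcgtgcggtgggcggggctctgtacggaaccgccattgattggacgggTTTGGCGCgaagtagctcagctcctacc
Mcm7 (chr5:138172021-138172068, minus strand): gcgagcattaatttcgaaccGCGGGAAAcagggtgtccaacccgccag
Cdc6 (chr11:98907993-98908040, plus strand): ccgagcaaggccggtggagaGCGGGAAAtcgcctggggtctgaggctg
Gins3 (chr8:95633498-95633545, plus strand): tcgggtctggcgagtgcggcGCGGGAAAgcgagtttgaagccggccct
Pola1 (chrX:93632266-93632313, minus strand): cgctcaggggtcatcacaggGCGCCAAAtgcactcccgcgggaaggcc
Rrm1 (chr7:102441608-102441654, plus strand): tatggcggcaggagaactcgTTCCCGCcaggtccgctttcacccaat

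The 47 genes spanned a wide range of levels. On a scale comparable between genes, CPM per kilobase of exon (RPKM, mean of the 12 libraries), Pcna was highest at 36.3 and Rrm1 next at 28.7, followed by Rpa3 at 13.1, Prim1 at 11.9 and Dut at 11.6. Cdc6, at 0.738, and Orc1, at 0.995, were lowest, and the other 45 genes had a mean of at least 1 RPKM. The subunits of one complex did not stand at one level: within MCM2-7 the mean ran from 5.63 RPKM for Mcm2 to 11.5 for Mcm6, and within GINS from 1.03 for Gins3 to 6.54 for Gins4. Exonic bases were shared with another gene in 6 of the 47, from 46 bases of Pold2 to 1734 bases of Ccne2, which limits these counts. The plot of levels per kilobase shows the fractions overlapping at every gene.

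**Figure D1:**
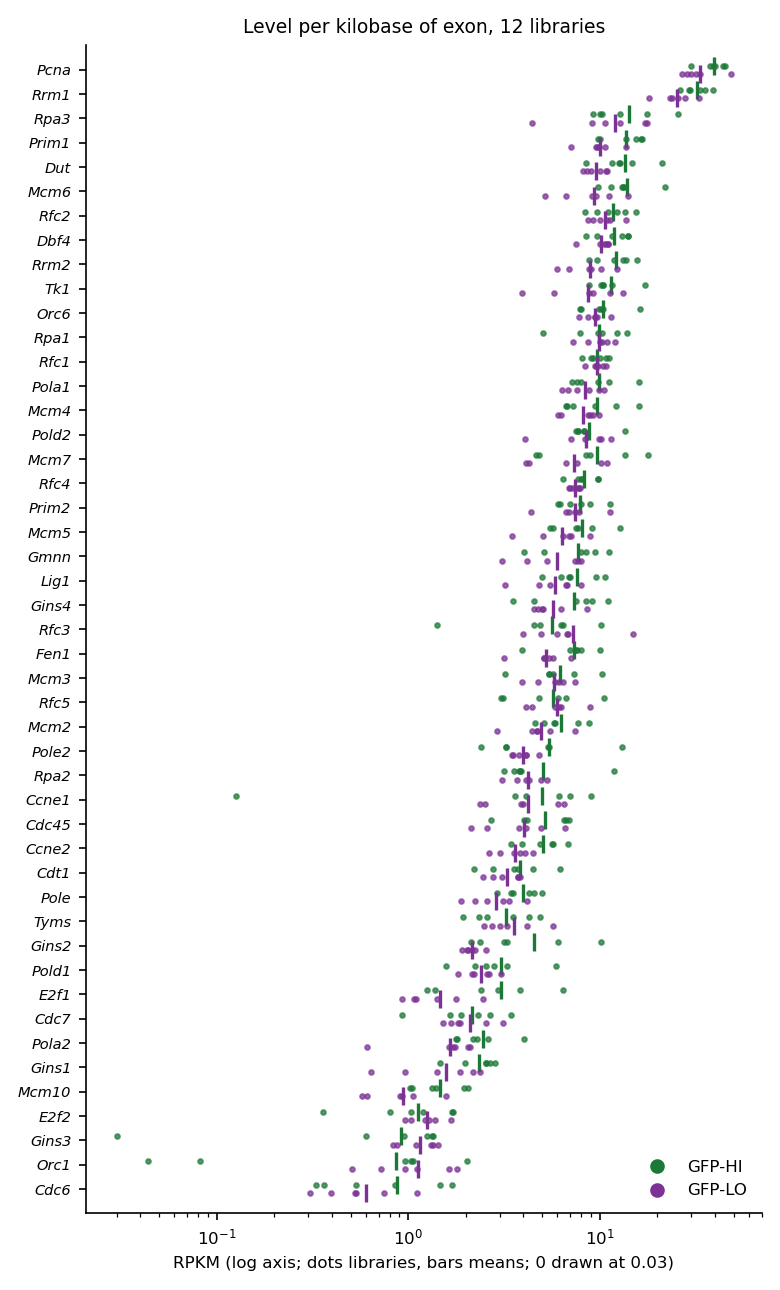
Level of each of the 47 genes in RPKM on a log axis, with 1 dot for each library, green for GFP-HI and purple for GFP-LO, and bars at the means of 6 libraries. Pcna and Rrm1 lie above the rest. The dots farthest to the left belong to GFP-HI of B1M, where Orc1, Gins3 and Ccne1 had 2, 0 and 2 counts, and to GFP-HI of B3M, where Orc1 had 1 count.

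Replication genes leaned towards GFP-HI, the fraction labelled infrequently dividing, without any single gene passing the test. With both libraries of an animal paired in edgeR's quasi-likelihood test, 37 of the 47 genes had a positive log2 fold change of GFP-HI over GFP-LO, 78.7%, where 46.9% of all tested genes did. Their median was 0.259, against −0.0174 over all tested genes, and single values ran from −0.78 for Orc1 to 0.91 for E2f1. After Benjamini-Hochberg adjustment over all tested genes, 0 of 47 passed the threshold of 0.05, which 0.529% of all tested genes passed (55 higher and 7 lower in GFP-HI). DESeq2 with the same pairing called 2 of them, Rrm1 and Mcm6, where it called 120 of 11719 genes higher and 23 lower. It gave no adjusted p for some members, among them Orc1, Gmnn, Mcm10, Gins2, Rfc3 and E2f1. Limma-voom called 0 of the 47, where it called 80 genes higher and 14 lower. In edgeR, at an unadjusted p under 0.05, 11 genes were higher in GFP-HI, 23.4% of the members where 4.3% of all tested genes were. At that level 0 were lower, where 2.94% of all tested genes were.
These 11 were Mcm6, Mcm7, Pole, Pcna, Fen1, Lig1, Rrm1, Rrm2, Dut, E2f1 and Ccne2. In 8 genes of 47 the GFP-HI library was the higher one in each of the 6 animals, which held for 3.3% of all tested genes. The 8 were Mcm2, Mcm7, Mcm10, Gins1, Fen1, Rrm1, Rrm2 and Ccne2. In 0 of the 47 did the lowest GFP-HI library exceed the highest GFP-LO library, a separation reached by 0.0683% of all tested genes. The 10 genes with a negative value were Orc1, Gins3, Rfc3, E2f2, Rfc5, Tyms, Rpa1, Ccne1, Cdc7 and Rfc1, and each of their 95% intervals held 0. In sorted bulk RNA, a larger share of cells in S phase in GFP-HI and more of a transcript per cell there cannot be told apart.

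**Figure D2:**
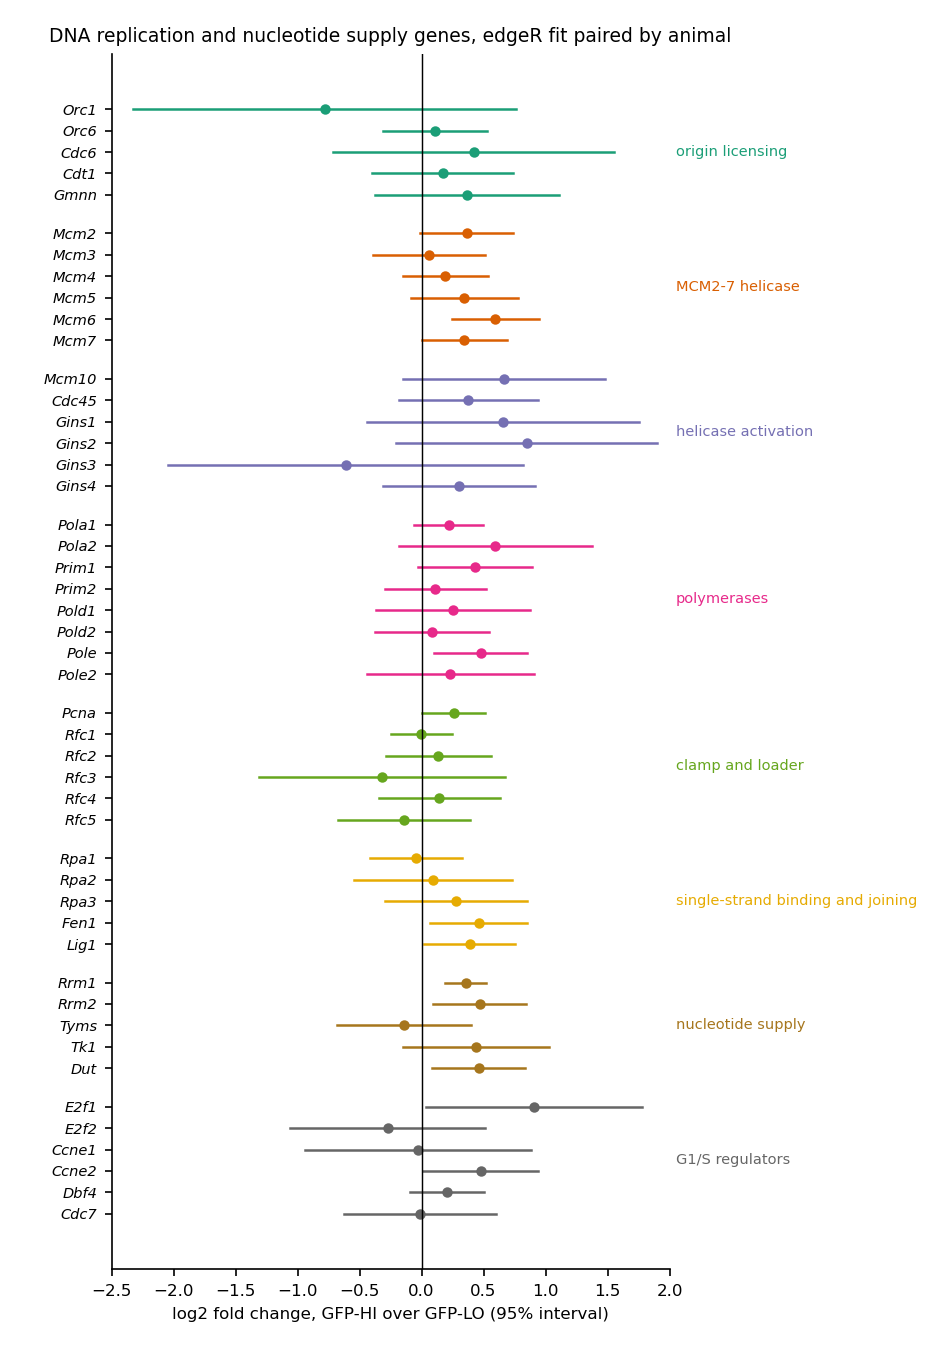
Log2 fold change of GFP-HI over GFP-LO for each of the 47 genes, with its 95% interval from edgeR's fit paired by animal, coloured by role. Most points lie to the right of 0, and the widest intervals belong to the genes with few counts, such as Orc1, Gins3, Cdc6 and Gins2.

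Summed over the 47 genes, the level was 923.5 ± 111 CPM in GFP-HI, where GFP-LO had 760.1 ± 115 CPM (SD, n = 6 each). GFP-HI ran from 785.4 to 1081 and GFP-LO from 574.4 to 881.3, so the fractions overlapped between animals. Within an animal they did not: the log2 ratio of the sums was 0.21 in B5M, 0.219 in B7M, 0.264 in B3M, 0.285 in B4M, 0.295 in B1M and 0.451 in B7F, a mean of 0.287 ± 0.0875 (SD, n = 6). By role, the sum was higher in GFP-HI in 6 of 6 animals for the polymerases, for single-strand binding and joining, for nucleotide supply and for the G1/S regulators. It was higher in 5 of 6 for licensing, MCM2-7, helicase activation and the clamp with its loader. A sum is weighted to its abundant genes. In GFP-HI Rrm1 averaged 128.6 of the 217.4 CPM of nucleotide supply, a class with 4 positive and 1 negative fold changes. Dbf4 and Ccne2 averaged 28.95 and 16.29 of the 74.81 CPM of the G1/S regulators, where 3 were positive and 3 negative.

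**Figure D3:**
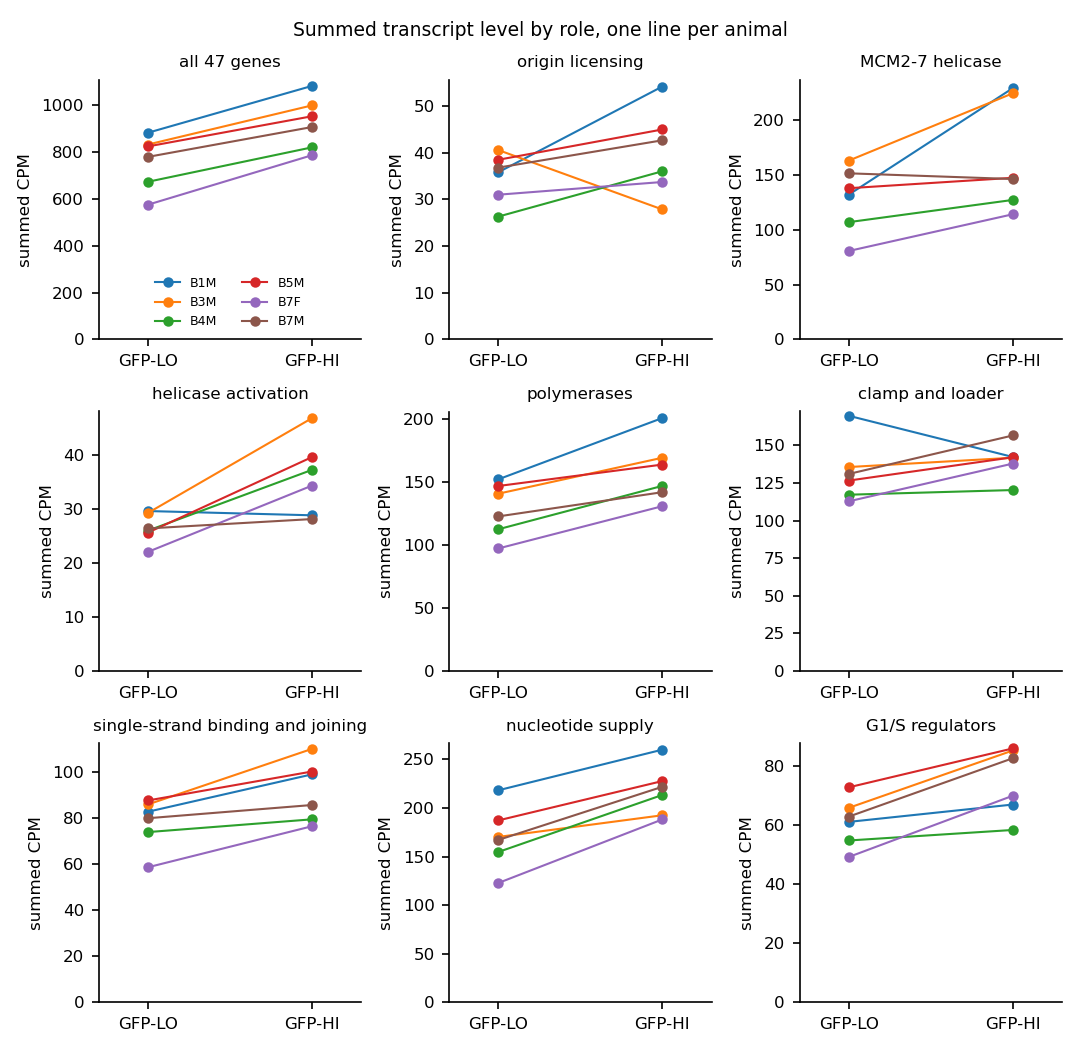
Summed CPM of all 47 genes and of each role class in GFP-LO and GFP-HI, with 1 coloured line for each animal and axes from 0. All 6 lines of the summed level slope upward to GFP-HI, whereas B3M slopes down for origin licensing, B7M for MCM2-7, and B1M for helicase activation and for the clamp and loader.

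Origin licensing showed the least uniform pattern between animals. Its 5 genes summed to 39.9 ± 9.33 CPM in GFP-HI, where GFP-LO had 34.8 ± 5.26 CPM, and the log2 ratio ran from −0.543 in B3M to 0.597 in B1M. Orc1, the subunit of the origin recognition complex that joins it at each cell cycle, had 0.131, 3.002 and 6.09 CPM as lowest, median and highest GFP-HI value, and 1.53, 3.12 and 5.43 CPM in GFP-LO. In B1M and B3M its GFP-HI libraries held 2 counts and 1 count, where the GFP-LO libraries of the same animals held 23 and 39. The difference was −0.78 on the log2 scale (SE 0.72, edgeR adjusted p = 0.85), −0.33 without B1M, −0.28 without B3M and 0.19 when both animals were left out. Orc6, another subunit of that complex, ran from 13.0 to 26.8 CPM in GFP-HI (median 16.7) and from 12.9 to 19.0 CPM in GFP-LO (median 15.6). The top GFP-HI value, from B1M, stood apart from the other 5. Its log2 fold change of 0.11 (SE 0.19, adjusted p = 0.93 by edgeR) became −0.04 without that animal.
Gmnn encodes geminin, which holds Cdt1 in check. It ran from 3.94 to 10.9 CPM in GFP-HI (median 8.07) and from 3.03 to 7.79 CPM in GFP-LO (median 6.22), with a log2 fold change of 0.37 (SE 0.34, edgeR adjusted p = 0.85), which was 0.16 without B4M and 0.62 without B3M. The 2 helicase loaders, Cdc6 and Cdt1, had 0.42 and 0.17 with intervals that held 0 (−0.71 to 1.55 and −0.40 to 0.74).

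All 6 subunits of the MCM2-7 ring, the motor that unwinds DNA at the fork, had positive values, from 0.06 for Mcm3 to 0.59 for Mcm6, with a median of 0.345. Mcm3 turned to −0.14 without B1M, and Mcm4 to −0.04 without both B1M and B3M. Their sum was 165 ± 49.7 CPM in GFP-HI, where GFP-LO had 128.9 ± 30.3 CPM. Mcm6 (chr1:128331591-128359656), whose promoter holds both copies of the motif shown above, had 28.3, 38.4 and 63.3 CPM as lowest, median and highest in GFP-HI. In GFP-LO the corresponding values were 15.03, 27.1 and 40.9. B7M had the highest GFP-LO value and was the only animal with more Mcm6 in GFP-LO. The log2 fold change of 0.59 (SE 0.16, 95% interval 0.24 to 0.95) had an adjusted p of 0.24 in edgeR and 0.048 in DESeq2.
Mcm7 (chr5:138164589-138171862), a neighbour of Mcm3 and Mcm4 in the ring, differed more between animals than between fractions. It ran from 11.2 to 42.6 CPM in GFP-HI (median 20.8) and from 9.86 to 26.3 CPM in GFP-LO (median 17.1). In each of the 6 animals the GFP-HI library was the higher one (log2 0.35, SE 0.16, edgeR adjusted p = 0.68). Mcm2, at 0.36, was also higher in 6 of 6 animals, and Mcm5 and Mcm4, at 0.34 and 0.19, in 4 of 6. Mcm3 was higher in 1 of 6 animals, B1M, and its 95% interval of −0.39 to 0.51 allows a difference in either direction.

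Helicase activation had the highest median of the role classes, 0.517, on low counts. Its 6 genes summed to 35.9 ± 7.05 CPM in GFP-HI, where GFP-LO had 26.5 ± 2.77 CPM. Mcm10, a factor needed for the loaded helicases to start unwinding, had 3.56 to 7.21 CPM in GFP-HI (median 4.78) and 2.00 to 5.50 CPM in GFP-LO (median 3.22). It was higher in GFP-HI in 6 of 6 animals, and with 17 to 72 counts per library its log2 fold change was 0.67 (SE 0.38, edgeR adjusted p = 0.76). Gins2, a subunit of the GINS complex, had 1.97 to 2.65 CPM in GFP-LO (median 2.19), a narrow range, and 2.197 to 10.5 CPM in GFP-HI (median 3.35). The high GFP-HI values came from B3M and B7F, and the log2 fold change was 0.85 (SE 0.49, edgeR adjusted p = 0.77). The gene shares 118 of its 1038 exonic bases with Gse1, whose own log2 fold change was −0.12.
Gins4, the most abundant GINS subunit per kilobase, ran from 4.79 to 15.1 CPM in GFP-HI (median 10.9) and from 6.21 to 11.7 CPM in GFP-LO (median 6.83). It was higher in GFP-HI in 3 of 6 animals (log2 0.30, SE 0.28, edgeR adjusted p = 0.85), and the value was 0.11 without B4M and 0.46 without B1M. Gins1 and Cdc45, which completes the active helicase, had 0.66 and 0.38. Gins3 was the negative member at −0.61 (interval −2.04 to 0.82), and its GFP-HI library of B1M held 0 counts, which allows up to 0.368 CPM, against 16 counts in that animal's GFP-LO library. Its value was 0.06 without both B1M and B3M.

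With all 6 animals the 8 polymerase genes had positive values, from 0.09 for Pold2 to 0.59 for Pola2, and summed to 158.7 ± 24.9 CPM in GFP-HI, where GFP-LO had 128.5 ± 21.5 CPM. Pole (chr5:110286319-110337453), the catalytic subunit of the leading-strand polymerase, had 20.7, 27.8 and 35.8 CPM as lowest, median and highest in GFP-HI. Its GFP-LO libraries had 13.4, 20.3 and 29.6 CPM. The ranges overlapped, and GFP-HI was higher in every animal except B3M. The log2 fold change was 0.48 (SE 0.17, 95% interval 0.10 to 0.85, edgeR adjusted p = 0.55).
Prim1, the catalytic subunit of the primase that starts each new strand, was the most abundant polymerase gene per kilobase. It ran from 14.98 to 25.4 CPM in GFP-HI (median 22.3) and from 10.8 to 21.1 CPM in GFP-LO (median 14.97), with a log2 fold change of 0.43 (SE 0.21, edgeR adjusted p = 0.71). Only B1M had less in GFP-HI, and the value was 0.27 without B4M. Its partner Prim2 had 0.11, the other subunits of the priming complex, Pola1 and Pola2, had 0.22 and 0.59, and Pold1, the catalytic subunit of the lagging-strand polymerase, had 0.26. Pole2, the second subunit of the leading-strand enzyme, had 0.23 (interval −0.44 to 0.90) and was higher in 3 of 6 animals. It turned to −0.0085 without B1M, and Pold2, an accessory subunit of the lagging-strand enzyme, to −0.067 without B7F.

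The sliding clamp and its loader showed the smallest difference, with a median of 0.0652 and 3 positive and 3 negative genes, or 4 and 2 with relative log expression scaling, under which Rfc1 turned to 0.0043. Pcna (chr2:132249286-132253180), which encodes the clamp, had 37.6, 49.96 and 57.0 CPM as lowest, median and highest in GFP-HI and 34.0, 39.1 and 61.3 CPM in GFP-LO. The highest of all 12 values was the GFP-LO library of B1M, the only animal with less Pcna in GFP-HI. The log2 fold change was 0.26 (SE 0.12, 95% interval 0.0039 to 0.51, edgeR adjusted p = 0.68). RefSeq lists Pcna pseudogenes, and how reads that match several places were counted is not given in the sources used here.
Rfc1, the large subunit of the loader that opens the clamp, stood at 45.9 ± 5.47 CPM in GFP-HI, where GFP-LO had 45.9 ± 4.09 CPM (SD, n = 6 each). Its 95% interval ran from −0.25 to 0.24 on the log2 scale. Rfc3, a small loader subunit, ran from 1.72 to 12.3 CPM in GFP-HI (median 6.77) and from 4.81 to 18.1 CPM in GFP-LO (median 7.77). B1M held both the lowest GFP-HI and the highest GFP-LO value. The log2 fold change of −0.32 (SE 0.46, edgeR adjusted p = 0.91) became 0.16 without B1M. Rfc2, Rfc4 and Rfc5 had 0.13, 0.14 and −0.14, Rfc5 turned to 0.032 without B3M, and 160 of the 1216 exonic bases of Rfc4 lie on Eif4a2 too.

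Among the genes that protect and join single strands, the flap endonuclease Fen1 and the ligase Lig1, which finish the fragments of the lagging strand, had larger values than the single-strand binding protein, a difference that was not tested. Fen1 (chr19:10199132-10203943) had 8.69, 16.8 and 22.2 CPM as lowest, median and highest in GFP-HI and 7.04, 11.7 and 15.7 CPM in GFP-LO. GFP-HI was higher in 6 of 6 animals by 0.28 to 0.56 on the log2 scale, so the overlap of the ranges came from differences between animals. The log2 fold change was 0.46 (SE 0.18, edgeR adjusted p = 0.61, exact sign-flip p = 0.03125, which is the smallest that 6 pairs can give). Each member higher in GFP-HI in 6 of 6 animals had this same sign-flip p, which is not adjusted over genes.
Lig1 ran from 17.6 to 37.7 CPM in GFP-HI (median 24.5) and from 11.3 to 28.2 CPM in GFP-LO (median 21.4), higher in GFP-HI in 5 of 6 animals (log2 0.39, SE 0.17, edgeR adjusted p = 0.66). Rpa3, the smallest subunit of the single-strand binding protein RPA, ran from 5.91 to 16.3 CPM in GFP-HI (median 7.38) and from 2.84 to 11.3 CPM in GFP-LO (median 7.48). Its log2 fold change was 0.28 (SE 0.27, edgeR adjusted p = 0.86), or 0.14 without B5M. Those of Rpa1 and Rpa2 were −0.04 and 0.09, each turning sign when 1 animal was left out (0.0996 for Rpa1 without B1M, −0.15 for Rpa2 without B3M).

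Nucleotide supply held 3 of the 11 genes with an unadjusted p under 0.05 and the gene with the smallest p of all 47. Rrm1 (chr7:102441695-102469771), the large subunit of ribonucleotide reductase, had 104.4, 126 and 155.8 CPM as lowest, median and highest in GFP-HI. The GFP-LO libraries had 72.5, 99.2 and 131.9 CPM. The ranges overlapped because animals differed: B1M was highest and B7F lowest in both fractions. Within animals the difference was largest in B7F, at 0.52, then 0.39 in B7M, 0.35 in B5M, 0.33 in B4M, 0.30 in B3M and 0.24 in B1M. The log2 fold change was 0.36 (SE 0.077, 95% interval 0.19 to 0.52), a fold of 1.28, and missed the threshold in edgeR (adjusted p = 0.073). Its adjusted p was 0.0077 in DESeq2 and 0.055 in limma-voom. In edgeR it was 0.041 without B1M and 0.032 without both B1M and B3M. Leaving out another single animal raised the edgeR adjusted p, to 0.15 (B3M), 0.19 (B4M), 0.26 (B5M), 0.22 (B7F) and 0.31 (B7M).
Rrm2, the small subunit that carries the enzyme's radical, ran from 19.2 to 34.2 CPM in GFP-HI (median 27.4) and from 13.0 to 26.9 CPM in GFP-LO (median 19.4). GFP-HI was higher in 6 of 6 animals, from 0.10 in B5M to 1.19 in B7F (log2 0.47, SE 0.17, edgeR adjusted p = 0.57). Dut, which removes dUTP before it can enter DNA, had 0.46 (edgeR adjusted p = 0.60) and was higher in every animal except B3M. Tk1, the salvage kinase of thymidine, had 0.44 with an interval of −0.15 to 1.03. Tyms, which makes thymidylate anew, was the negative gene of this class at −0.14 (interval −0.68 to 0.40) and 0.088 without B1M, and a pseudogene row, Tyms-ps, stands in the same table.

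The G1/S regulators were split, with 3 positive and 3 negative genes. E2f1 (chr2:154559639-154569852), a transcription factor of the G1/S genes, had 3.10, 6.57 and 15.8 CPM as lowest, median and highest in GFP-HI and 2.29, 3.08 and 6.04 CPM in GFP-LO. The high GFP-HI values were those of B1M, at 15.8, and B3M, at 9.45, while B4M differed by −0.03 on the log2 scale. Its log2 fold change of 0.91 (SE 0.40, 95% interval 0.04 to 1.78, edgeR adjusted p = 0.66) was the largest of the 47 with all 6 animals and rested on 19 to 129 counts per library. It was 0.59 without B1M, below Gins2 (0.997), Mcm6 (0.614) and Prim1 (0.605) in that fit, and 0.45 without both B1M and B3M. E2f2, a related factor, had −0.27 (interval −1.06 to 0.51).
Ccne2, one of the E-type cyclins that drive entry into S phase, ran from 11.1 to 22.0 CPM in GFP-HI (median 16.95) and from 8.45 to 14.4 CPM in GFP-LO (median 11.9). It was higher in GFP-HI in 6 of 6 animals (log2 0.48, SE 0.22, edgeR adjusted p = 0.68), and the value was 0.30 without B7F. It shares 1734 of its 3217 exonic bases, 53.9%, with Ints8, which had 0.17 (edgeR adjusted p = 0.83), so its reads may in part belong to that gene. The other E-type cyclin, Ccne1, was higher in GFP-HI in 5 of 6 animals and had 2 counts in the GFP-HI library of B1M, which left its log2 fold change at −0.03 (interval −0.94 to 0.89). Without that animal it was 0.39.
Dbf4, the activating subunit of the Cdc7 kinase, ran from 20.8 to 34.5 CPM in GFP-HI (median 30.2) and from 18.4 to 27.1 CPM in GFP-LO (median 26.1), with a log2 fold change of 0.21 (SE 0.14, edgeR adjusted p = 0.80). Cdc7 itself had −0.01 (interval −0.63 to 0.60), and 0.14 without B3M.

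**Figure D4:**
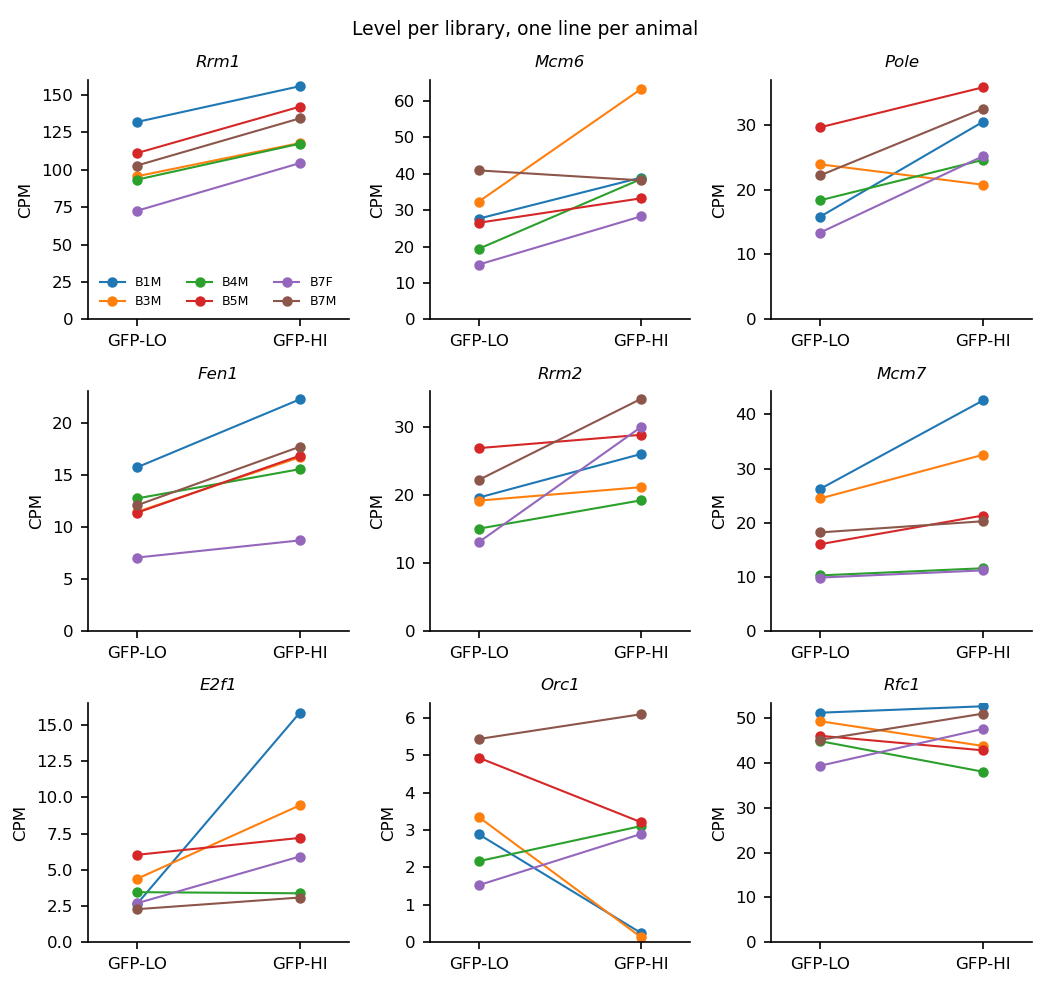
CPM of Rrm1, Mcm6, Pole, Fen1, Rrm2, Mcm7, E2f1, Orc1 and Rfc1 in GFP-LO and GFP-HI, with 1 coloured line for each animal and axes from 0. The lines of Rrm1, Fen1, Rrm2 and Mcm7 slope upward in all 6 animals, those of Rfc1 go both ways, and Orc1 drops to 2 counts and 1 count in B1M and B3M.

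Animals differed in how widely the 47 genes scattered more than in where they centred. The median difference of GFP-HI minus GFP-LO in log2 CPM was 0.16 in B7M, 0.183 in B1M, 0.184 in B5M, 0.195 in B4M, 0.249 in B3M and 0.344 in B7F. The SD over the 47 genes was 1.22 in B1M and 0.844 in B3M, the animals whose GFP-HI libraries detected the fewest genes, and 0.287 to 0.507 in the others. Genes higher in GFP-HI numbered 29 in B1M and in B3M, 33 in B7M, 36 in B4M, and 38 in B5M and in B7F. Over all tested genes the median difference ran from −0.0309 in B1M to 0.0137 in B3M. The SD and the counts by direction were not computed over all tested genes in each animal. The scatter is therefore not shown to be particular to the 47. The GFP-LO library of B7F, the older animal, was the lowest GFP-LO library for 23 of the 47 genes. The GFP-HI library of B7F was the lowest GFP-HI library for 14. Both counts were higher than any other animal's in that fraction. The same counts were not made over all tested genes, and age cannot be told apart from that animal.
Leaving B7F out cut the genes with an unadjusted p under 0.05 in edgeR from 11 to 3, where 4.34% of all tested genes were higher at that level. The count was 5 without B5M (3.66% of all tested genes), 5 without B7M (3.45%) and 7 without B4M (3.84%). It was 10 without B3M (4.27%), 12 without B1M (5.16%) and 13 without both (5.92%). The median fold change moved less, between 0.221 and 0.28 over these 7 fits.

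**Figure D5:**
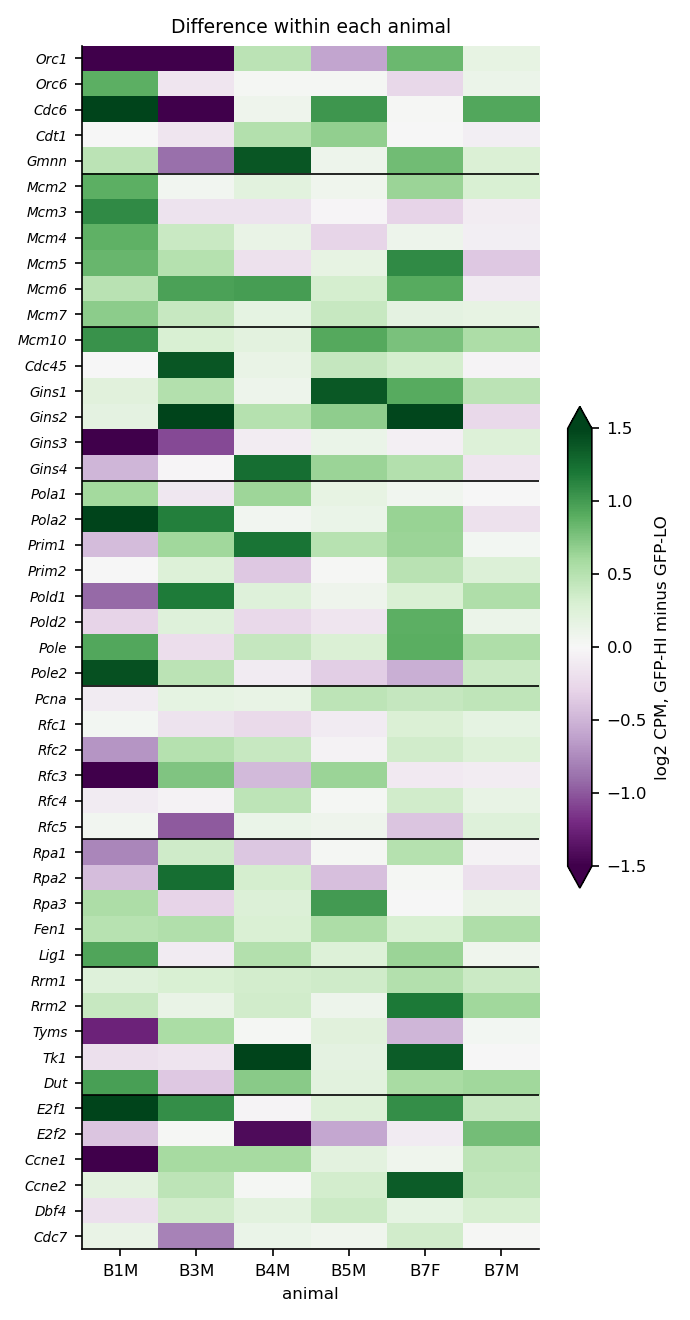
Difference of GFP-HI minus GFP-LO in log2 CPM for each of the 47 genes (rows, in order of role) in each of the 6 animals (columns), green where GFP-HI is higher and with the scale ending at 1.5 in either direction. Differences beyond the ends of the scale lie in B1M and B3M, apart from Tk1 in B4M at 1.54, and the row of Rrm1 is evenly pale green.

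The motif did not separate the genes by size of difference. The 12 genes with an 8-letter match had 9 positive and 3 negative values and a median of 0.226, and the other 26 genes with a promoter in RefSeq had 19 and 7 and a median of 0.267. Mcm6 and Gins3, both with a match before the start, had 0.59 and −0.61.

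Other genes of the pathway, taken from 4 further lists, were nearer to 0. Of 88 such genes, all tested, 54 had a positive and 34 a negative value, with a median of 0.035. Of all tested genes, 46.9% had a positive value. In edgeR 0 of the 88 passed, where 0.529% of all tested genes did. At an unadjusted p under 0.05, 5 were higher and 1 lower, where 4.3% and 2.94% of all tested genes were. The summed level of the 88 genes was higher in GFP-HI in 6 of 6 animals by 0.0781 ± 0.0513 (SD, log2). Among 15 other licensing and firing factors, 10 were positive (median 0.04). The smallest p there were those of Dtl, which directs Cdt1 to destruction, at 0.76 (SE 0.23, edgeR adjusted p = 0.35), and of the firing factor Topbp1, at 0.26 (SE 0.098, edgeR adjusted p = 0.57). Of 29 other fork and polymerase genes, 21 were positive (median 0.0869), with the histone chaperone Asf1b at 0.70 (edgeR adjusted p = 0.66) and the polymerase subunit Pole4 at −0.57 (edgeR adjusted p = 0.69).
Nucleotide supply outside the 47 was balanced, with 11 positive and 14 negative genes of 25 and a median of −0.00697. Gart, an enzyme of purine synthesis, had −0.38 (edgeR adjusted p = 0.61), and the salvage kinase Dck had 0.37 (edgeR adjusted p = 0.68). Of 19 other E2F and G1/S genes, 12 were positive (median 0.111), with the S phase cyclin Ccna2 at 0.32 (edgeR adjusted p = 0.47) and the repressor E2f7 at 0.78 (edgeR adjusted p = 0.69).

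Genes of other cell cycle phases and of other cell types also differed between the fractions, and their part in the result was not tested. Of 25 genes of G2 and mitosis, 23 had a positive value with a median of 0.34. In edgeR 17 were higher at an unadjusted p under 0.05, where 4.3% of all tested genes were. Top2a and Kif15 passed the adjusted threshold, which 0.529% of all tested genes passed. The summed level of the 25 genes was 2909 ± 455 CPM in GFP-HI, where GFP-LO had 2243 ± 360 CPM. It was higher in GFP-HI in 6 of 6 animals, by 0.377 ± 0.185 (SD, log2). In B5M, where 38 of the 47 replication genes were higher in GFP-HI, the median of the G2 and mitosis genes was 0.0213, and in B7M it was 0.499. Genes of the histone clusters, whose products package new DNA, had a median of 0.629, and 42 of 57 tested passed the same adjusted threshold. The difference between these lists and the 47 genes was not tested.
Of 12 fibroblast markers 7 were tested, and the sum of the list was 297.1 to 529.2 CPM in GFP-HI and 399.9 to 661.2 CPM in GFP-LO, lower in GFP-HI in 6 of 6 animals. Dcn made up most of it, with a log2 fold change of −0.49 (edgeR adjusted p = 0.0031), while 5 of the 7 tested markers were positive (median 0.192), among them Col1a1 at 1.55, Col1a2 at 1.11 and Vim at 1.08 on means of 0.852 to 3.07 CPM. The defining markers Lum and Pdgfra had 9 and 11 counts over all 12 libraries. The sums of 14 suprabasal keratinocyte genes were 1586 to 4302 CPM in GFP-HI and 1684 to 3063 CPM in GFP-LO, and those of 8 Merkel and taste cell genes 19.9 to 38.6 and 11.2 to 30.1 CPM, higher in GFP-HI in 5 of 6 animals. Leukocyte genes summed to 16.0 to 88.5 and 32.0 to 94.8 CPM, of which Epcam, an epithelial gene as well, made up means of 40.9 and 44.4 CPM, while Ptprc averaged 1.01 and 0.79 CPM and Cd207, Tyrobp and Cd3e had 15, 4 and 8 counts in all. Melanocyte and Schwann genes to 1.72 to 6.51 and 3.77 to 7.98 CPM, endothelial genes to 0 to 5.41 and 0 to 2.7 CPM, with Emcn at 0, and erythroid genes to 0.131 to 1.71 and 0.344 to 2.17 CPM, with Hba-a1 and Hba-a2 at 0.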

How the data were processed

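The deposited table gives read counts per gene, whole numbers that the authors did not normalise, for 23420 genes in 12 libraries, and the file headers give each gene's exon intervals and exonic length. Per the submitters' processing notes, the tools were featureCounts, bcl2fastq 2.20.0, R 3.4.1, DESeq2 and FastQC, on GRCm38 (mm10). Per the labels' protocols, RNA of sorted cells went through the NuGEN SoLo kit. Not given in the sources used here are the aligner, the strand setting and how multiply matching reads were handled, so reads of overlapping genes cannot be assigned with certainty.

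The tests used edgeR 4.0.16 (R 4.3.3): a filter by group (minimum count 10, minimum total 15), TMM scaling, a robust quasi-likelihood fit with animal as a block, a two-sided test and Benjamini-Hochberg adjustment over 11719 genes (threshold 0.05). SE is the fold change divided by the square root of the test's F. Differences within animals used log2 CPM with a prior count of 2, and single genes an exact two-sided sign-flip permutation. DESeq2 1.42.0 and limma 3.58.1 served as alternatives.

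The pairing comes from animal codes in the labels of samples described as matched. Deviations from the group mean correlated within animals at 0.237 (B1M), 0.256 (B3M), 0.225 (B4M), 0.494 (B5M), 0.39 (B7F) and 0.462 (B7M), and at most at 0.257 between animals. No sequencing batch is named, and no column was left unused. The fit was tested on simulated counts.

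The members and all lists were chosen with earlier results of these data known. Of 239 listed symbols 237 were in the table, Primpol, Pclaf and Hbb-bs under older names. Named in full are, in each role, the 2 genes with the smallest p and the one with the highest RPKM. Genes with a negative value are also named. Coordinates of genes are those of the deposited table, and promoters come from RefSeq (GRCm38.p6).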

Additional observations from a re-analysis of the deposited data

Results flagged for a closer look

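Each group of 6 values was checked for a highest or lowest value standing apart from the other 5, meaning that its gap to the nearest one exceeded Dixon's 95% limit as a share of the whole range. Of 79 groups examined, 10 met this, where chance alone gives about 1 in 20. The first of these concerned B1M: Orc6 in GFP-HI at 26.8 CPM (the others 13.0 to 17.2), its difference within animals of 0.88 on the log2 scale (the others −0.27 to 0.12), Pcna in GFP-LO at 61.3 CPM (34.0 to 42.2), Rfc3 in GFP-LO at 18.1 CPM (4.81 to 8.32) and the Rfc3 difference of −3.23 (−0.46 to 0.74). The Dbf4 difference of B1M was also low, −0.19 against 0.17 to 0.38.

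Mcm6 in the GFP-HI library of B3M stood at 63.3 CPM (the others 28.3 to 38.9). In B7F, the older animal, Dbf4 in GFP-LO was at 18.4 CPM (24.6 to 27.1), the Ccne2 difference was 1.36 (0.03 to 0.47) and the log2 ratio of the summed 47 genes was 0.451 (0.21 to 0.295).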

How the results depend on the processing

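The 47 genes kept a positive median in each of the 15 fits, and the mean log2 ratio of their sums stayed between 0.255 and 0.305 with another scaling, without Rn45s or with any animal left out, and was 0.214 as a mean over log2 CPM. Without the replicate block their median was 0.345, and the calls over all genes fell from 55 higher and 7 lower to 0 and 0. DESeq2 called 120 and 23 genes over the table and 2 members (Rrm1 and Mcm6), and the fit with no filter on low counts 127 and 45 and 1 member (Mcm6, adjusted p = 0.038). Leaving out both B1M and B3M gave 117 and 34 and 1 member (Rrm1). Lower calls numbered 14 with limma-voom and 12 with the stricter filter (1 CPM in all 12 libraries), which tested 43 members. With 1 animal left out at a time, edgeR called 29 to 81 genes higher and 2 to 14 lower, and 0 to 1 members (Rrm1 without B1M). With single animals left out, Orc6 ran from −0.044 (without B1M) to 0.19 and Rfc3 from −0.56 (without B3M) to 0.16 (without B1M), and without both B1M and B3M Orc1 turned to 0.19 and Orc6 to −0.021. The cause was not tested. The motif share was 48.9% with 7 letters, since a shorter string is found more often. Over these alternatives the adjusted p ran from 0.0077 to 1.00 for Rrm1 and from 0.038 to 1.00 for Mcm6. Orc1, Gins3 and Ccne1 had 2, 0 and 2 counts in the GFP-HI library of B1M, which held 4981256 counts without Rn45s, and 23, 16 and 39 in its GFP-LO library, which held 4707343.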
